A study of Mus musculus with 15 samples.

Results

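The response of samples labelled mouse mammary epithelial cells to valproic acid (VPA) was compared between animals labelled pregnant and animals labelled virgin. VPA is an inhibitor of histone deacetylases. For each gene, the change from PBS to VPA at the virgin label was subtracted from the same change at the pregnant label. This quantity, on the log2 scale, is called the stage difference below. It is positive where VPA raised a transcript more, or lowered it less, at the pregnant label. The arrays were chosen by their sample titles, which gave 9 of the 15 arrays of the study, and all 12393 genes with a probe set of their own were tested. The stage difference passed the threshold, an adjusted p under 0.05 with limma, in 39 genes, which is 0.315% of the genes tested.

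All samples were labelled mammary epithelial cells, obtained by digestion of the glands of female C57BL/6 mice after an intraperitoneal injection. The name is that of the titles. Markers of other cell types, skeletal muscle and salivary gland among them, were also read, as given below. At the pregnant label, day 21, 2 arrays followed PBS, the control, and 3 followed VPA. At the virgin label, an age of 9 weeks, 2 arrays followed PBS and 2 followed VPA. The 6 further arrays followed 5-azacytidine (AzaC), an inhibitor of DNA methylation, and entered the fit to estimate the spread between replicates. The labels used here give no dose and no interval between injection and sampling. Whether each replicate is another mouse is not stated either, and the spread behind the p-values may then be technical. With 2 or 3 arrays in a group, the number of arrays limits the precision of every value. A lower level in such bulk samples can come from fewer cells of a type or from less RNA per cell, which cannot be told apart.

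Histone deacetylases remove acetyl groups from histone tails and from many other proteins, and their inhibition raises the transcription of some genes and lowers that of others. In the mammary gland, alveolar epithelium grows under progesterone and prolactin during pregnancy and turns to milk synthesis around birth, with JAK-STAT signalling, lipid synthesis and an expanded secretory apparatus. The same drug can therefore meet cells with different growth and secretory programmes at different stages, and the comparison asks which transcripts responded differently.

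The arrays themselves differed in ways that bear on every value below. Milk transcripts (Csn2, Wap, Lalba, Csn1s1 and Glycam1) read at least 13.41 on all 9 arrays, the arrays labelled virgin included, so the stage is given here as a label. On the first principal component of genes with a mean of at least 6, which held 52.1% of their variance, the pregnant VPA arrays lay between 29.0 and 35.1. The other arrays compared lay between -34.5 and -12.5, with the virgin PBS replicates at -12.5 and -34.5. The 3' minus 5' difference of the Gapdh control probe sets, which grows as RNA breaks down, was 1.23 on virgin PBS replicate 2 and 0.82 on pregnant VPA replicate 3, and -0.17 to 0.47 on the other arrays compared. Across genes, replicates correlated at 0.948 to 0.979 and other pairs at 0.924 to 0.974, and no arrays were identical.

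VPA changed far more transcripts at the pregnant than at the virgin label by count. At the pregnant label 741 genes passed the threshold, 451 higher (3.64%) and 290 lower (2.34%), or 5.98% of the genes tested. The split was 400 higher and 413 lower after quantile normalization, and 374 and 418 with arrays centred on their medians. The pregnant label had 3 VPA arrays and the virgin label 2. The pregnant count was 214, 193 and 231 without pregnant VPA replicate 1, 2 and 3 in turn. At the virgin label 1 gene passed, Fgf10, which is 0.00807% of the genes, and 851 genes had an unadjusted p under 0.05 with limma. The counts of the separate arms do not show a difference by themselves, and the stage difference is the test of it. It was positive in 15 of the 39 genes past the threshold (0.121% of the genes tested), at 1.30 to 6.84 with a median of 2.44. It was negative in 24 genes (0.194%), at -4.88 to -1.13 with a median of -1.99. Over all genes the median stage difference was 0.045, with 6495 of 12393 genes (52.4%) above 0, the share beside which the counts of signs in gene lists stand.

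**Figure D1:**
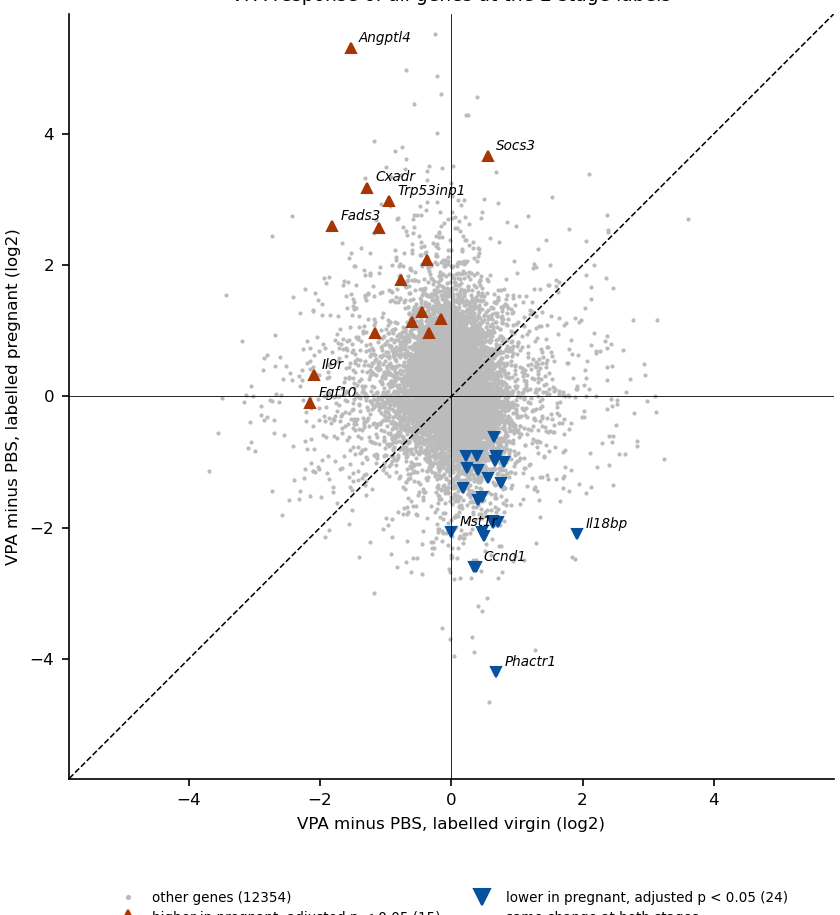
Each point is a gene, with its VPA minus PBS change on arrays labelled virgin on the horizontal axis and on arrays labelled pregnant on the vertical axis, both in log2 units. The 15 genes of positive and the 24 of negative stage difference lie off the dashed line of equal change, mostly through large pregnant changes, whereas Fgf10 and Il9r lie off it through the virgin change.

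The pregnant and virgin changes had opposite signs in 13 of the 15 and in 23 of the 24 genes, and in 53.2% of all genes. The genes were picked by the stage difference, so these counts describe them and test nothing. Among the 15 genes of positive stage difference, 13 rose with VPA at the pregnant label. Their pregnant VPA arrays all lay above the PBS arrays in 14 (25.7% of all genes, and 43.3% without overlap in either direction), and their virgin VPA and PBS arrays did not overlap in 14 (35.8% of all genes). All 24 genes of negative stage difference fell with VPA at the pregnant label without overlap (17.6% of all genes had all VPA arrays below the PBS arrays there). At the virgin label 20 of them did not overlap (35.8% of all genes).

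Lipid and energy genes held the largest value. Angptl4, a secreted inhibitor of lipoprotein lipase and a classical target of the fatty acid receptors PPAR, read 8.01 and 7.88 with PBS and 13.43, 13.13 and 13.20 with VPA at the pregnant label. At the virgin label it read 10.16 and 8.25 with PBS and 7.82 and 7.52 with VPA. The pregnant VPA arrays stood above the other 6 arrays, and the virgin VPA arrays stood lowest. The stage difference of Angptl4 was 6.84 ± 1.18 (SE, adjusted p = 0.0483), made of 5.31 at the pregnant label and -1.54 at the virgin label. Its other probe set had a mean of 2.99 over the 15 arrays, and the mean of both sets gave a stage difference of 4.22, which did not pass the threshold.

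Ucp3, a mitochondrial carrier that is induced by fatty acids, showed the same order of the groups. It read 8.78 and 8.29 with PBS and 11.08, 10.85 and 11.36 with VPA at the pregnant label, against 9.65 and 8.86 with PBS and 8.06 and 8.25 with VPA at the virgin label. VPA arrays were thus above both PBS arrays at one label and below both at the other. Its stage difference was 3.66 ± 0.57 (SE, adjusted p = 0.0325), and the other Ucp3 probe set gave 4.15. Fads3, a member of the fatty acid desaturase family, was dimmer. Its values at the pregnant label were 4.32 and 5.38 with PBS and 7.39, 7.37 and 7.56 with VPA, and at the virgin label 6.72 and 5.52 with PBS and 3.73 and 4.89 with VPA. Again the groups did not overlap within either label, and the stage difference was 4.40 ± 0.79 (SE, adjusted p = 0.0491), or 2.86 over the mean of its probe sets.

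Of 24 measured genes of fatty acid oxidation and PPAR targets, Angptl4 and Ucp3 passed the threshold for the stage difference. With VPA at the pregnant label 6 of the 24 rose past the threshold, against 3.64% of all genes. None passed at the virgin label, where 1 of 12393 genes did. The list had a median stage difference of 0.69, against 0.045 over all genes, and 20 of its 24 members were above 0. Adipocyte markers, which share PPAR targets, were above 0 in 11 of 13 with a median of 0.90, none past the threshold, and their part in these genes was not tested. Genes of the opposite process lay below 0 more often than above. In the list of fatty acid and triglyceride synthesis 22 of 25 members had a negative stage difference, with a median of -1.06. Of the 25, 8 fell with VPA at the pregnant label, against 2.34% of all genes. In cholesterol synthesis 18 of 19 were negative, with a median of -1.88, and 8 fell at the pregnant label (2.34% of all genes). No member of either synthesis list passed for the stage difference. Cyp51, the sterol demethylase, had a value of -3.61 (adjusted p = 0.0615) and Stard4, a sterol carrier, one of -2.27 (adjusted p = 0.0609).

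**Figure D2:**
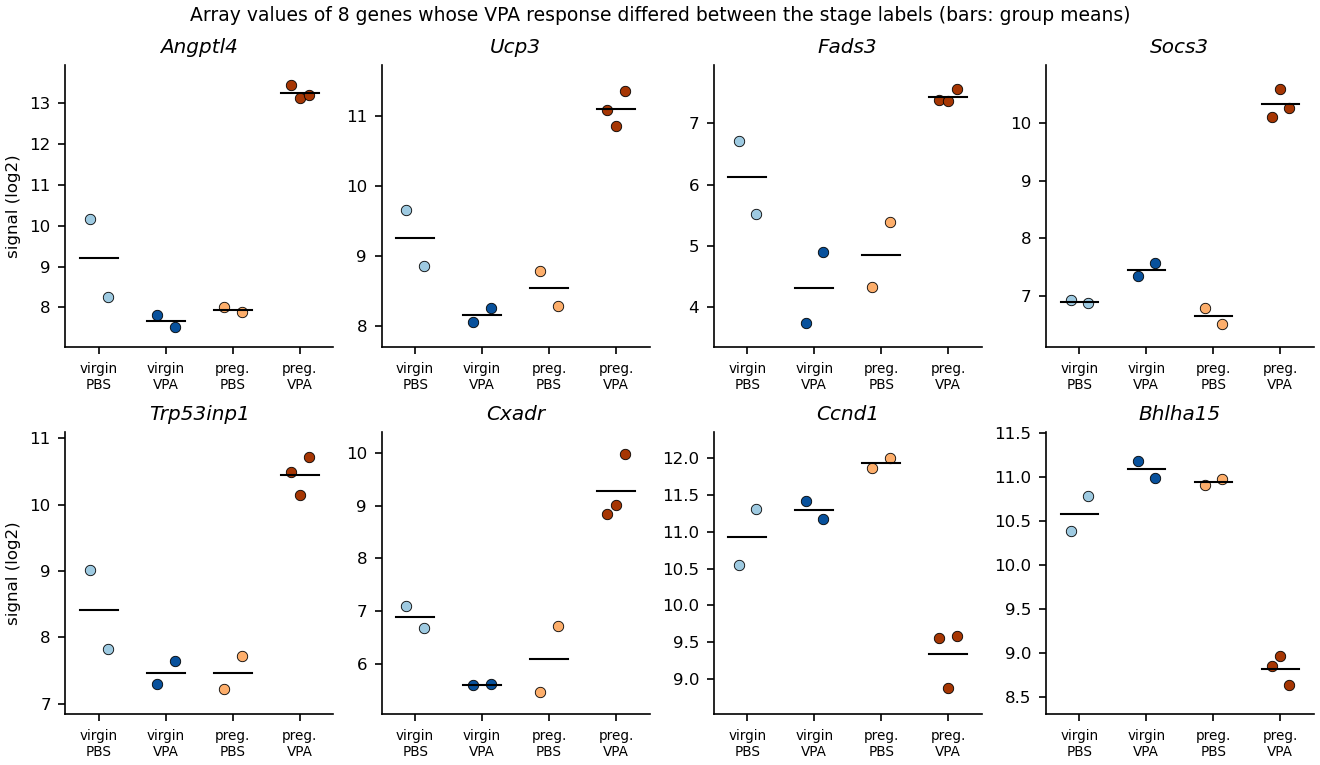
Signal on the log2 scale of 8 genes on each of the 9 arrays, by stage label and injection, with a bar at each group mean. In Angptl4, Ucp3, Fads3, Socs3, Trp53inp1 and Cxadr the 3 pregnant VPA arrays lie above all others, and in Ccnd1 and Bhlha15 below all others.

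In cytokine signalling, Socs3 had a positive stage difference past the threshold, as did the receptor gene Il9r at a low level, described below. Socs3 is a feedback inhibitor that cytokine receptors induce through STAT proteins and that then blocks their JAK kinases. It read 6.79 and 6.52 with PBS and 10.10, 10.59 and 10.26 with VPA at the pregnant label, and 6.93 and 6.88 with PBS and 7.34 and 7.58 with VPA at the virgin label. Both labels had higher values with VPA than with PBS on all arrays, by 3.66 (adjusted p = 0.000602) and by 0.56 (adjusted p = 0.763) respectively. Socs3 was thereby the 1 gene of the 15 whose virgin change was positive, and its stage difference was 3.11 ± 0.43 (SE, adjusted p = 0.0279). Its other probe sets gave 1.90 and 3.14.

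Among 18 measured genes of prolactin and JAK-STAT signalling, Socs3 was the 1 member past the threshold for the stage difference. With VPA at the pregnant label 5 of the 18 rose past the threshold, against 3.64% of all genes. The median of the list was 0.29. Osmr, a receptor subunit for oncostatin M, had the next smallest p in the list. It read 6.98 and 6.97 with PBS and 10.41, 10.24 and 10.28 with VPA at the pregnant label, and 8.68 and 7.52 with PBS and 6.75 and 6.83 with VPA at the virgin label. Its stage difference of 4.65 ± 0.89 (SE) did not pass the threshold (adjusted p = 0.0568).

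Promoters were searched for letters that STAT proteins are known to bind, because Socs3 is their textbook target. Windows of 250 bases before and 50 after the RefSeq start (build GRCm38.p6) were found for 27 of the 39 genes, 31 windows in all. The motif TTCNNNGAA, which reads the same on both strands, was in windows of 3 genes, Socs3, Ucp3 and Phactr1, and in 8.3% of all 32851 windows. The endoplasmic reticulum stress element, searched by its full consensus, was in 0 of the 27 genes and in 0.119% of all windows, on either strand. The E-box CACGTG was in Tbc1d13 and Tfdp1 and in 7.15% of all windows. No gene's windows held more than 1 of these motifs. The 250 bases before the start are given below for the genes with the STAT motif, whose letters are in capitals, to show where it lies. They are chr11:117969367-117969616 (minus strand) for Socs3, chr7:100472741-100472990 (plus strand) for Ucp3 and chr13:43122589-43122838 (plus strand) for 1 of the 3 Phactr1 starts.
Socs3: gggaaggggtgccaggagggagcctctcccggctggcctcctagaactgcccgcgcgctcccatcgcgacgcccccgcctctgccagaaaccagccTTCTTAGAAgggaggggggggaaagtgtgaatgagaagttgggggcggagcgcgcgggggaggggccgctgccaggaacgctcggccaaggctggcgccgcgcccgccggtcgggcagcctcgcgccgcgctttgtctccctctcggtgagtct
Ucp3: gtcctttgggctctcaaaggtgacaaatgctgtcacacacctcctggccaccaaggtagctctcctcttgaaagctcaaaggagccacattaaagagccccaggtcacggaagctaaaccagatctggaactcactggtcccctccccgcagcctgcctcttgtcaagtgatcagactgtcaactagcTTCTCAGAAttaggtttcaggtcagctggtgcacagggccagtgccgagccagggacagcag
Phactr1: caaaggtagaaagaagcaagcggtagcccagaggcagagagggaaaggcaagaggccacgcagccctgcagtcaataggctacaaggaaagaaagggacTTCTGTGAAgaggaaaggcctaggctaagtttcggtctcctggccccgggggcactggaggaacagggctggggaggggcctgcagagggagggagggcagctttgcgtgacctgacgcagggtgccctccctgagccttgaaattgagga
The motif begins 154 bases before the start in Socs3, 62 in Ucp3 and 151 in Phactr1. Socs3 and Ucp3 had positive stage differences and Phactr1 a negative one, and a match of letters is not evidence of binding.

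Trp53inp1, a stress-induced partner of p53 in cell cycle arrest and autophagy, read 7.22 and 7.72 with PBS and 10.49, 10.14 and 10.72 with VPA at the pregnant label. With the virgin label it read 9.01 and 7.82 with PBS and 7.29 and 7.64 with VPA. Groups did not overlap within either label. Its stage difference was 3.93 ± 0.70 (SE, adjusted p = 0.0491), and its other probe set gave 3.63. It was the 1 gene past the threshold among 20 measured p53 targets and cell cycle inhibitors, whose median was 0.60. Of the 20, 3 rose with VPA at the pregnant label, against 3.64% of all genes. Cdkn1b, the inhibitor p27, had a stage difference of 1.64 (adjusted p = 0.0833), and Cdkn1a, the inhibitor p21, one of -0.50 (adjusted p = 0.426).

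Cxadr, a junctional adhesion protein that also serves as a virus receptor, read 5.47 and 6.71 with PBS and 8.83, 9.01 and 9.97 with VPA at the pregnant label, and 7.09 and 6.68 with PBS and 5.59 and 5.61 with VPA at the virgin label. The stage difference was 4.47 ± 0.80 (SE, adjusted p = 0.0491). Its 4 probe sets differed, since the others gave 2.57, 2.28 and -0.79, and their mean gave 2.13. Wfdc5, a small secreted protein with the whey acidic protein fold, read 5.26 and 4.47 with PBS and 6.91, 6.96 and 6.95 with VPA at the pregnant label. At the virgin label Wfdc5 read 5.90 and 5.51 with PBS and 5.37 and 5.31 with VPA, which gave a stage difference of 2.44 ± 0.33 (SE, adjusted p = 0.0279). The 3 pregnant VPA arrays lay close together and stood above the other arrays compared. The pregnant AzaC arrays, outside the comparison, read 6.90, 6.92 and 7.15.

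The remaining genes of positive stage difference with a group mean of at least 6 had values of 1.30 to 2.54. N4bp2l1 had a stage difference of 2.54 ± 0.35 (SE, adjusted p = 0.0279), with 5.92 and 5.87 on PBS and 7.45, 7.72 and 7.83 on VPA arrays at the pregnant label and 6.36 and 6.41 on PBS and 5.50 and 5.74 on VPA arrays at the virgin label. Gnpda1, a glucosamine-6-phosphate deaminase of hexosamine breakdown, had one of 1.74 ± 0.25 (SE, adjusted p = 0.0279), with 6.65 and 6.09 on the PBS arrays and 7.72, 7.53 and 7.73 on the VPA arrays at the pregnant label. Its virgin values were 7.00 and 6.80 with PBS and 6.43 and 6.47 with VPA. Myo15, an unconventional myosin, had one of 1.72 ± 0.28 (SE, adjusted p = 0.0388). In each of these genes VPA arrays lay above the PBS arrays at the pregnant label and below them at the virgin label. Mgat4b, a glycosyltransferase of N-glycan branching, and Cnnm2, a protein of magnesium transport, had stage differences of 1.34 and 1.30 and lie outside the naming rule, so they were named after their values were seen.

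Dim genes, with all 4 group means under 6, included 3 of positive and 1 of negative stage difference. In the 3 of positive stage difference the virgin change was larger in size than the pregnant change. Fgf10, a growth factor of mammary stroma that signals to epithelium, read 4.86 and 5.26 with PBS and 5.00, 4.86 and 5.02 with VPA at the pregnant label. Its virgin values were 5.26 and 5.11 with PBS and 2.76 and 3.30 with VPA. Low values were found on the virgin VPA arrays alone, and its change with VPA there was -2.16 (adjusted p = 0.0109). The stage difference was 2.06 ± 0.30 (SE, adjusted p = 0.0279), and it was 0.06 once values under 5 were set to 5. Il9r, the interleukin 9 receptor, read 4.95 and 4.81 with PBS and 2.58 and 2.99 with VPA at the virgin label, and 4.15 to 4.89 on all pregnant arrays. Its stage difference of 2.42 (adjusted p = 0.0491) was 0.00 with that floor. Itgbl1, an integrin-like secreted protein, had a stage difference of 2.14 (adjusted p = 0.0483), with a pregnant change of 0.97 and a virgin change of -1.17.

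The dim gene of negative stage difference was Mst1r, which encodes a receptor tyrosine kinase. It read 2.05 and 2.09 on the pregnant PBS arrays and was listed at 0 on the other 7 arrays compared. Its stage difference of -2.07 (adjusted p = 0.0279) therefore rests on the pregnant PBS arrays, at levels near the bottom of the scale, and it was 0.00 with values under 5 set to 5.

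Among the genes of negative stage difference, Ccnd1, cyclin D1, which drives cells from G1 towards DNA replication, read 11.87 and 12.00 with PBS and 9.55, 8.88 and 9.58 with VPA at the pregnant label. Its virgin values were 10.55 and 11.31 with PBS and 11.42 and 11.18 with VPA. The pregnant VPA arrays were the lowest and the pregnant PBS arrays the highest of all, while the virgin groups overlapped. Its stage difference was -2.97 ± 0.46 (SE, adjusted p = 0.0325), and its other probe sets gave -2.91 and -3.05.

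Pola1, the catalytic subunit of DNA polymerase alpha, read 6.95 and 7.20 with PBS and 6.00, 5.50 and 5.75 with VPA at the pregnant label, and 6.28 and 6.20 with PBS and 6.88 and 7.12 with VPA at the virgin label. VPA arrays were below PBS arrays at the first label and above them at the second, and the stage difference was -2.08 ± 0.34 (SE, adjusted p = 0.0393). Tfdp1, the dimer partner of E2F factors, had a stage difference of -1.30 (adjusted p = 0.0483) and Nrm, nurim of the nuclear envelope, one of -1.80 (adjusted p = 0.0325). Both were named after their values were seen.

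In the list of cell cycle and DNA replication, Ccnd1 was the 1 gene of 41 past the threshold for the stage difference. All but 1 of the 41 had a negative stage difference, with a median of -1.83. With VPA at the pregnant label 14 of the 41 fell past the threshold, against 2.34% of all genes. None passed at the virgin label, where 1 of 12393 genes did. Mcm4, a subunit of the replicative helicase, had a value of -1.91 (adjusted p = 0.0591). Mki67, a marker of cycling cells, read 10.28 and 11.93 with PBS and 6.90, 6.45 and 9.40 with VPA at the pregnant label, and 10.72 and 11.81 with PBS and 11.05 and 11.20 with VPA at the virgin label. Pregnant VPA replicate 3 lay well above its fellow replicates, and the stage difference of Mki67 was -3.38 ± 1.52 (SE, adjusted p = 0.260).

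Rrp12, a factor in the export and maturation of ribosomal subunits, read 8.01 and 7.46 with PBS and 6.34, 5.79 and 5.39 with VPA at the pregnant label, and 6.70 and 6.88 with PBS and 7.55 and 7.31 with VPA at the virgin label. The groups were apart at both labels in opposite directions, but the virgin change of 0.64 did not pass the threshold (limma adjusted p = 0.731). The stage difference was -2.54 ± 0.42 (SE, adjusted p = 0.0393). Further members chosen after their values were seen were Eprs, the glutamyl-prolyl-tRNA synthetase, at -1.65, Pelo, a ribosome rescue factor, at -1.61, and Ptcd3, a mitochondrial ribosome protein, at -1.53. No list of translation genes was tested.

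Bhlha15, a transcription factor that builds up the secretory apparatus of exocrine cells, read 10.91 and 10.98 with PBS and 8.86, 8.97 and 8.64 with VPA at the pregnant label. It read 10.38 and 10.78 with PBS and 11.18 and 10.99 with VPA at the virgin label. Pregnant VPA arrays lay below the other arrays compared, and virgin VPA arrays above the virgin PBS arrays. The pregnant AzaC arrays, outside the comparison, read 8.09, 9.06 and 8.59. The stage difference was -2.63 ± 0.40 (SE, adjusted p = 0.0325), but the other Bhlha15 probe set gave -0.36 and their mean -1.49. Sdf2l1, a partner of the endoplasmic reticulum chaperone BiP, read 8.47 and 8.85 with PBS and 7.36, 7.33 and 7.12 with VPA at the pregnant label and 8.07 and 8.40 with PBS and 8.34 and 8.48 with VPA at the virgin label. The virgin groups overlapped, and the stage difference was -1.57 ± 0.26 (SE, adjusted p = 0.0444). Ell2, an elongation factor of RNA polymerase II that secretory plasma cells rely on, and Yipf5, a membrane protein between endoplasmic reticulum and Golgi, had values of -1.99 and -1.58 and were named after their values were seen.

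Sdf2l1 was the 1 gene past the threshold among 25 genes of endoplasmic reticulum stress and the amino acid response, where 18 were negative and the median was -0.52. In the list of milk proteins and secretory differentiation the median stage difference was -0.11 over 24 genes, with none past the threshold. With VPA at the pregnant label 3 of the 24 fell past the threshold, against 2.34% of all genes. The list's mean level was 12.65 to 12.88 on pregnant VPA arrays and 13.03 to 13.23 on the other arrays compared. Csn2, beta-casein, had a stage difference of 0.19 ± 0.20 (SE, adjusted p = 0.656) and Wap, whey acidic protein, one of 0.49 ± 0.25 (SE, adjusted p = 0.309). Neither read below 13.41 on any array compared, where the highest value of all arrays was 14.48. Whether a ceiling of the scale limited their changes was not tested. Atp2b2, the calcium pump of the apical membrane that loads milk with calcium, read 12.00 and 11.99 with PBS and 8.87, 8.26 and 7.00 with VPA at the pregnant label and 11.47 to 11.71 on the virgin arrays. Its stage difference of -3.99 ± 1.10 (SE) did not pass the threshold (adjusted p = 0.104).

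Cytokine genes of negative stage difference were Il15 and Il18bp. Il15, a growth factor of natural killer and memory T cells, read 10.07 and 10.17 with PBS and 7.65, 7.89 and 7.01 with VPA at the pregnant label, and 9.01 and 9.79 with PBS and 9.65 and 9.84 with VPA at the virgin label. The virgin groups overlapped and the pregnant groups did not, and the stage difference was -2.95 ± 0.50 (SE, adjusted p = 0.0444). Il18bp, a secreted protein that traps interleukin 18, read 6.27 and 5.96 with PBS and 4.44, 4.27 and 3.34 with VPA at the pregnant label, and 4.25 and 4.31 with PBS and 6.02 and 6.38 with VPA at the virgin label. The level with PBS at one label was thus close to the level with VPA at the other. The stage difference of Il18bp was -4.02 ± 0.71 (SE, adjusted p = 0.0486), or -2.31 with values under 5 set to 5.

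The most negative value belonged to Phactr1, which binds actin and protein phosphatase 1. It read 6.69 and 7.29 with PBS and 2.92, 2.90 and 2.54 with VPA at the pregnant label, and 5.87 and 6.97 with PBS and 7.19 and 7.01 with VPA at the virgin label. The pregnant VPA arrays lay far below all others compared. The stage difference was -4.88 ± 0.69 (SE, adjusted p = 0.0279), or -2.67 with values under 5 set to 5.

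Slc2a1, the glucose transporter that supplies lactose synthesis, was bright and tight across replicates, at 11.43 and 11.41 with PBS and 10.49, 10.54 and 10.50 with VPA at the pregnant label. Its virgin values were 11.13 and 11.26 with PBS and 11.48 and 11.35 with VPA. Its stage difference was the smallest in size of the 39, -1.13 ± 0.19 (SE, adjusted p = 0.0467). It was the 1 gene past the threshold of 15 glycolysis genes, whose median was -0.43. Slc13a1, a sodium-coupled sulfate transporter, read 6.82 and 6.97 with PBS and 4.90, 5.16 and 4.89 with VPA at the pregnant label, and 5.69 and 5.70 with PBS and 6.57 and 6.25 with VPA at the virgin label. Groups did not overlap within either label, and its stage difference was -2.63 ± 0.31 (SE, adjusted p = 0.0279).

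Fam160a2, which links endosomes to motor proteins, had a stage difference of -2.54 ± 0.42 (SE, adjusted p = 0.0393) at a high level, with 12.46 and 12.32 on PBS and 10.64, 10.69 and 9.64 on VPA arrays at the pregnant label and 11.48 and 11.72 on PBS and 12.07 on both VPA arrays at the virgin label. Atg9b, of the autophagy machinery, had one of -2.55 ± 0.46 (SE, adjusted p = 0.0491), with 6.49 and 6.37 on PBS and 4.32, 4.54 and 4.66 on VPA arrays at the pregnant label and 5.46 and 6.07 on PBS and 6.47 and 6.32 on VPA arrays at the virgin label. In both genes VPA arrays lay below PBS arrays at the pregnant label and above them at the virgin label. The other members of this direction, named after their values were seen, were Cyb5b, a mitochondrial cytochrome, at -2.00, Tbc1d13, a Rab regulator, at -1.80, Ankrd26 at -1.34 and Mfsd10 at -1.28.

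**Figure D3:**
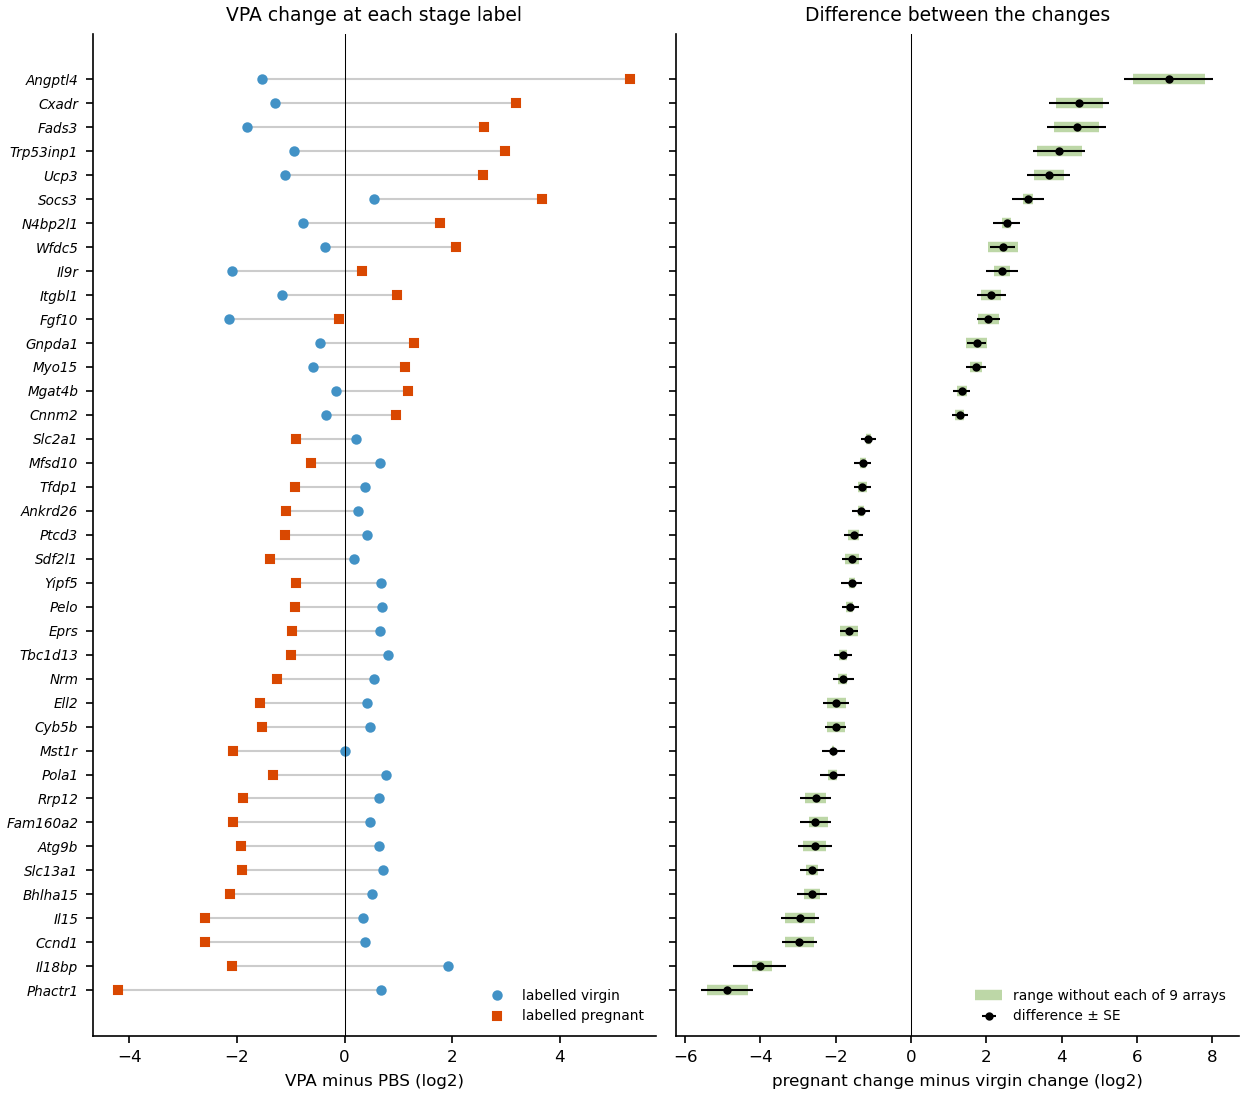
The left panel gives the VPA minus PBS change of the 39 genes at each stage label and the right panel their stage difference with its SE and, as a wide bar, its range when each of the 9 arrays was left out in turn, all in log2 units. No bar reaches 0, from 5.89 to 7.80 in Angptl4 to -5.43 to -4.33 in Phactr1, but the genes were picked by this difference.

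Levels with PBS and with VPA each entered the stage difference. With PBS, the pregnant mean was below the virgin mean in all 15 genes of positive stage difference, by -1.27 to -0.13, and above it in all 24 of negative stage difference, by 0.23 to 2.07. Of these differences 1 passed the threshold, that of Mst1r, and over all genes 1 gene passed. With VPA, the pregnant and virgin means differed past the threshold in all 15 and in 23 of the 24 genes, and in 825 genes overall. These values share arrays with the stage difference that chose the genes and describe it only. In 12 of the 15 and 23 of the 24 the virgin PBS mean lay between the virgin VPA and the pregnant VPA means.

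The same difference between stages for AzaC shares its PBS arrays with that for VPA, so the values of both drugs are given side by side. For AzaC no gene passed the threshold (smallest adjusted p = 0.124 with limma, and 1587 genes at an unadjusted p under 0.05). Angptl4 had 6.84 for VPA and 3.11 for AzaC, Socs3 had 3.11 and 1.91, Ccnd1 had -2.97 and -1.75, and Bhlha15 had -2.63 and -2.33. The AzaC value had the sign of the VPA value in all 15 genes of positive and all 24 of negative stage difference. It was smaller in size in all 15 and in 22 of the 24. The shared PBS arrays enter these counts, which test nothing. The PBS arrays cancel in the difference between the drugs, and there 0 genes passed (smallest adjusted p = 0.998, with 434 genes at an unadjusted p under 0.05). With values under 5 set to 5, 1 gene passed. That difference was 3.73 ± 1.07 (SE) for Angptl4, 2.15 ± 0.51 (SE) for Ucp3, 1.20 ± 0.39 (SE) for Socs3 and -0.30 ± 0.36 (SE) for Bhlha15, and the p-values do not show that the drugs acted alike.

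Of the other lists, some had all or nearly all members on one side without any past the threshold. All 38 genes of oxidative phosphorylation had a negative stage difference, of small size, with a median of -0.39 and none past the threshold in either arm. Among 27 immediate early genes, the quickly induced transcription factors and their like, 19 were positive with a median of 0.96. Of the 27, 5 rose with VPA at the pregnant label, against 3.64% of all genes. Luminal progenitor genes had 15 of 17 positive and a median of 0.80, with 3 that rose at the pregnant label (3.64% of all genes). In that list Kit, the receptor of stem cell factor, had a stage difference of 4.55 ± 1.33 (SE, adjusted p = 0.113) and Ehf, an epithelial ETS factor, one of 1.77 (adjusted p = 0.0615). Of the drug's own targets, Hdac1 had -0.50 (adjusted p = 0.442) and Hdac5 1.33 (adjusted p = 0.113), and the 17 measured deacetylases and acetyltransferases had a median of 0.42 with none past the threshold. Arntl, the clock factor BMAL1, had a value of -1.32 (adjusted p = 0.0615), with -0.18 at the pregnant and 1.14 at the virgin label.

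**Figure D4:**
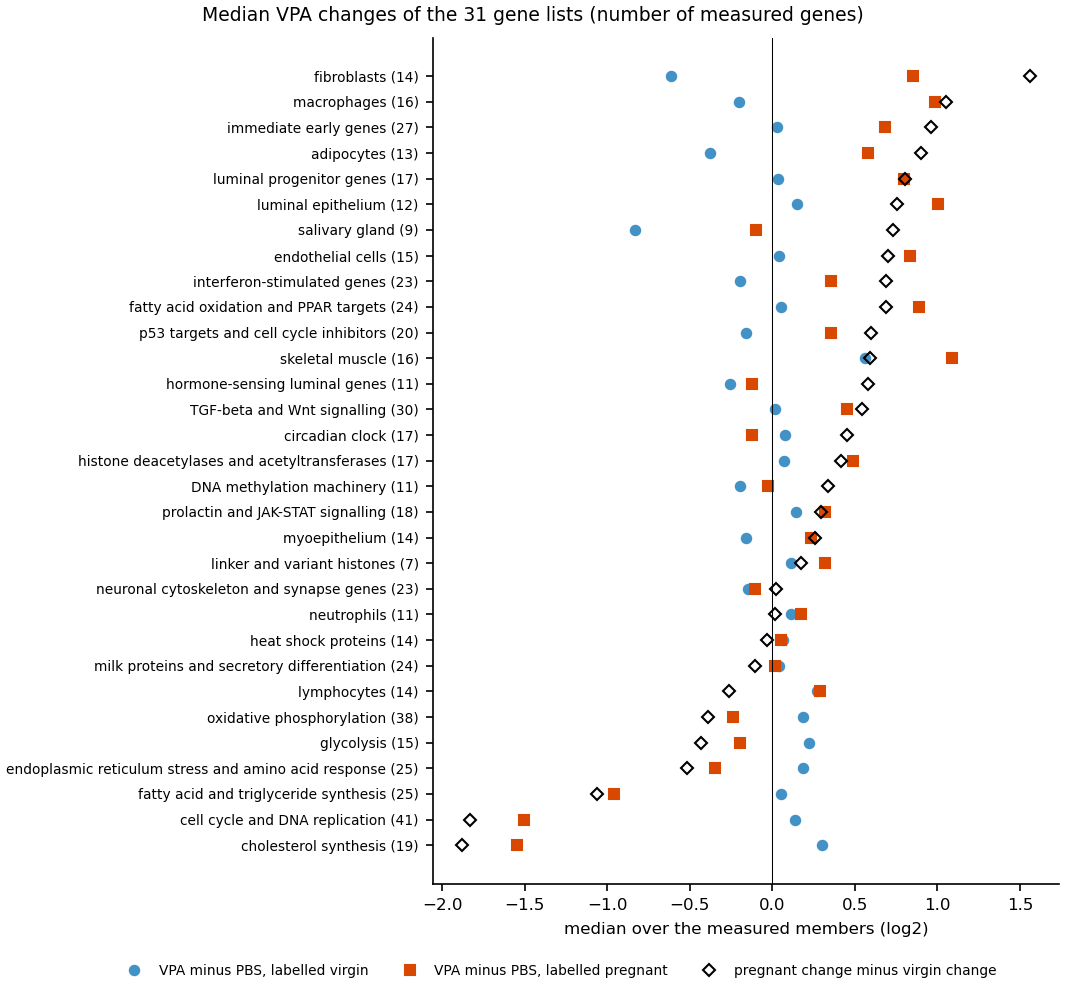
Median VPA change at the virgin label, at the pregnant label and median stage difference of each of the 31 gene lists, in log2 units, with the number of measured genes in parentheses. Cholesterol synthesis (-1.88) and cell cycle (-1.83) lie lowest, the fibroblast markers (1.56) lie highest, and the virgin medians stay between -0.83 and 0.56.

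Marker genes of several cell types, though not of all, moved with these values. Markers of myoepithelium (9 of 14 positive, median 0.26), neutrophils (6 of 11, median 0.01) and lymphocytes (5 of 14, median -0.26) lay on both sides of 0. The summed level of 12 luminal epithelial markers, in log2 units, was 15.84 to 16.09 on pregnant VPA arrays and 15.23 to 15.41 on the other arrays compared, and 10 of the 12 had a positive stage difference. All 14 fibroblast markers had one, with sums of 14.60 to 15.48 on pregnant VPA arrays, 13.99 to 14.26 on pregnant PBS, 14.19 to 14.72 on virgin PBS and 13.52 to 14.20 on virgin VPA arrays. So did all 15 endothelial markers (12.67 to 13.23 on pregnant VPA and 11.85 to 12.85 on the others), 15 of 16 macrophage markers (14.63 to 14.85 and 12.99 to 13.96) and all 16 skeletal muscle markers (16.57 to 16.78 and 14.96 to 16.38). Adipocyte markers summed to 15.07 to 15.28 on pregnant VPA, 14.67 to 14.85 on pregnant PBS, 14.77 to 15.33 on virgin PBS and 14.70 to 14.89 on virgin VPA arrays, so the highest sum was on a virgin PBS array. Salivary gland markers summed to 11.56 to 15.09 on virgin arrays and 10.80 to 11.81 on pregnant arrays, with the highest sum on a virgin PBS array. None of the markers was listed at 0 on all 9 arrays, none passed the threshold for the stage difference, and the part of other cell types in the 39 genes was not tested.

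The calls rested on few arrays and on the settings of the fit: the count was 16 after quantile normalization and 264 without genes of a mean under 6, and other settings also moved it. Of the 39 genes, 29 stayed past the threshold without virgin PBS replicate 2 and 9 without virgin PBS replicate 1. Without pregnant VPA replicate 3 and without virgin VPA replicate 2 it was 3 genes each, and without pregnant PBS replicate 1 it was 2. None stayed without pregnant PBS replicate 2, pregnant VPA replicate 1, pregnant VPA replicate 2 or virgin VPA replicate 1. The sign of all 39 held in each case, which the choice of the genes by this difference favoured. Slc13a1 and Tbc1d13 stayed past the threshold without 4 of the 9 arrays in turn and Wfdc5 without 3. The last genes inside the threshold had an adjusted p of 0.0491, and the first outside were Srm, the spermidine synthase, at -2.33, and Apcdd1, a Wnt inhibitor, at 3.40, each with an adjusted p of 0.0506. Ddx39a, an RNA helicase, at -1.97, and Erbb3, a receptor of neuregulins, at 3.29, followed with 0.0507 and 0.0552.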

How the data were processed

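The deposited table holds 1 value per probe set and array for 22690 probe sets and 15 Affymetrix arrays, hybridised with biotin-labelled cRNA from mRNA per the labels' protocols. The deposited values, with 2 decimals from 0 to 14.48, were taken as log2 signals from their range, since the authors' base of the logarithm, summary, background and normalization methods are not given in the sources used here. They were used as deposited. Array medians lay between 7.22 and 7.47, and 2.29 to 2.59% of the probe sets of an array were listed at exactly 0.

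Probe sets were named with the platform annotation of 2016: 20380 had 1 symbol, 691 several and 1619 none or were controls, of which there were 64. Only those with 1 symbol were used, and the probe set of highest mean stood for each of 12393 genes. No filter on dim genes was applied. limma 3.58.1 (R 4.3.3) estimated a mean for each of the 6 groups over the 15 arrays (lmFit, then eBayes), with 9 residual and 2.31 prior degrees of freedom. Tests were two-sided and adjusted over all genes by the method of Benjamini and Hochberg, separately in each comparison, with a threshold of 0.05. The fit was tested on simulated data. SE is the standard error of a log2 difference.

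The comparison, the 31 gene lists and the genes to name were chosen with earlier results of these data known. Named were the 10 largest differences past the threshold in each direction among genes with a group mean of at least 6, the 2 members of each list with the smallest p, 12 fixed genes, and dim genes where 5 or fewer passed. Not every gene so chosen is described. List entries were matched through gene IDs and RefSeq synonyms (581 of 641). Lists are described by counts and medians, with no set test. No genome was used, and promoter windows and their coordinates come from RefSeq (GRCm38.p6).

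Alternatives were quantile normalization, median centring, leaving out genes of a mean under 6, a floor at 5, the mean of a gene's probe sets, trend and robust settings, a fit of the 9 arrays, the replicate number as a block, the Gapdh difference as a covariate, leaving out the 3 arrays where it was highest, and leaving out each of the 9 arrays. Deviations of arrays with the same replicate number correlated at -0.082 to 0.333 over 12 pairs, 5 of them over 0.1, and arrays were therefore not paired by number. Figures were drawn with matplotlib 3.10.9.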

Additional observations from a re-analysis of the deposited data

Results flagged for a closer look

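Of the genes named by rule, those past the threshold are given here, because their VPA changes at the pregnant and at the virgin label differed by the test of the difference itself (limma, adjusted p under 0.05). The pregnant change minus the virgin change, on the log2 scale, was 6.84 for Angptl4, 4.47 for Cxadr, 4.40 for Fads3, 3.93 for Trp53inp1, 3.66 for Ucp3, 3.11 for Socs3, 2.54 for N4bp2l1, 2.44 for Wfdc5, 2.42 for Il9r, 2.14 for Itgbl1, 2.06 for Fgf10, 1.74 for Gnpda1 and 1.72 for Myo15. In the other direction it was -1.13 for Slc2a1, -1.57 for Sdf2l1, -2.07 for Mst1r, -2.08 for Pola1, -2.53 for Rrp12, -2.54 for Fam160a2, -2.55 for Atg9b, -2.63 for Slc13a1, -2.63 for Bhlha15, -2.95 for Il15, -2.97 for Ccnd1, -4.02 for Il18bp and -4.88 for Phactr1. Within-group outliers were not tested, because no group compared holds 4 arrays.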

How the results depend on the processing

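The stage difference passed the threshold in 39 genes as deposited. The count was 16 after quantile normalization (all 16 among the 39), 264 without genes of a mean under 6 (30 of the 39, with 8826 genes tested), 147 with a floor at 5 (33), 242 with trend and robust settings (38), 84 in the fit of the 9 arrays (20), 83 with the Gapdh covariate (37) and 92 without the 3 arrays of the highest Gapdh difference (18). Leaving out each array gave 0 to 80. The pregnant count of 741 became 1183 without genes of a mean under 6, 1233 with the Gapdh covariate, 247 without the 3 arrays, and 20 to 761 with each array left out. The virgin count of 1 became 0 without genes of a mean under 6, with trend and robust settings and without the 3 arrays, 5 with a floor at 5, and 0 to 39 with each array left out. The difference between the drugs gave 1 gene with a floor at 5 and 0 to 3 with each array left out. With the replicate number as a block, counts were 0 for the stage difference, 241 for the pregnant arm and 0 for the virgin arm. In deviations from group means, 4 of the 9 arrays had their highest mean correlation with arrays of their own number in the other groups compared. Of 732 values of the 39 genes under these settings, 730 kept their sign and 2 were 0 (Il9r and Mst1r with a floor at 5), and 297 stayed past the threshold. Of 1190 values of 63 named genes outside the threshold, 43 passed it, and 30 of 589 list medians changed sign. The cause of these shifts was not tested. The 39 genes were picked by the stage difference, so their kept signs describe them only. Dim genes rest on values near the floor of the scale.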

Other observations

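Some groups not described above had members on both sides of 0. Genes of TGF-beta and Wnt signalling had a positive stage difference in 20 of 30 cases, with a median of 0.54. Of the 30, 6 rose with VPA at the pregnant label, against 3.64% of all genes. Ltbp1, which stores TGF-beta in the matrix, had a value of 3.28 ± 0.75 (SE, limma adjusted p = 0.0744), and Wnt5b, a Wnt ligand, one of 3.85 ± 1.12 (SE, adjusted p = 0.113). Interferon-stimulated genes were positive in 19 of 23 cases with a median of 0.69, yet Ifi35, with the smallest p of that list, had a value of -1.26 (adjusted p = 0.0987). Heat shock proteins were even, with 7 of 14 on each side and a median of -0.03.

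Tubb2b, a tubulin known from neurons, read 5.31 and 4.82 with PBS and 9.86, 10.30 and 11.62 with VPA at the pregnant label, and 6.38 and 5.11 with PBS and 5.80 and 5.19 with VPA at the virgin label. Its stage difference of 5.78 ± 1.49 (SE) was larger than that of all called genes but Angptl4 and did not pass the threshold (adjusted p = 0.0897). Cd14, a receptor of bacterial lipopolysaccharide, read 13.90, 13.87 and 13.65 with VPA and 10.50 and 9.89 with PBS at the pregnant label, against 10.44 and 11.01 with VPA and 12.20 and 10.62 with PBS at the virgin label. The virgin groups overlapped, and its stage difference was 4.30 ± 1.11 (SE, adjusted p = 0.0912). Dnmt1, the maintenance DNA methyltransferase, had a value of 0.04 ± 0.31 (SE, adjusted p = 0.967), and Esr1, the estrogen receptor alpha, one of -0.01 ± 0.61 (SE, adjusted p = 0.996).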
